A study of Homo sapiens with 6 samples.

Results

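Interferon-stimulated genes are the genes that cells switch on when interferon reaches their surface, and 45 of them were listed by symbol for a comparison of breast cancer cells with and without spinophilin silencing. The list covered the sensors of viral RNA, the transcription factors of the interferon pathway, the ISG15 pathway and the antiviral effectors. Of the 45 genes, 32 had a row that carried their symbol in the annotation of the array, each of them 1 row, out of 14884 named genes and 53617 transcript clusters in the series. The other 13 (IFI6, IFI27, MX1, OAS1, OAS2, OAS3, STAT2, CMPK2, PARP9, PARP14, GBP1, PSMB9 and TAP1) were not analysed here.

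Gene expression was measured in SUM159 cells, an established human line of basal-like breast cancer, on 3 arrays of spinophilin-silenced cells and 3 arrays of control cells (Affymetrix Human Gene 2.0 ST). Silenced cells carried a lentiviral shRNA against spinophilin, a scaffold protein that targets protein phosphatase to the cytoskeleton, and control cells carried a scrambled shRNA delivered in the same way. Cells of both groups were therefore infected with lentiviral particles and kept under puromycin, and no array of uninfected cells was analysed here, so each value below compares infected cells with infected cells. The arrays of each group are named 1, 2 and 2d as in the labels, which do not say what the d stands for or whether each sample was transduced separately, so the p-values cover the spread among these samples and no more. Spinophilin itself was not analysed here.

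Each value is a log2 expression value after background correction and quantile normalization, so that a difference is read against the rest of the same array. The median of all transcript clusters lay between 5.19 and 5.23 on the 6 arrays, the lower quartile between 3.85 and 3.90 and the upper quartile between 6.50 and 6.53, and a gene is called dim or bright here only against these limits. Of 11 measured mesenchymal markers, 10 lay above the upper quartile on all 6 arrays, VIM and CD44 among them, and TWIST1 lay above the median on 2. The 16 measured luminal markers were mixed, with 7 below the median on all 6 arrays (ESR1, PGR and EPCAM among them), 8 above it on all 6 (the keratins KRT8, KRT18 and KRT19 among them) and CLDN7 above it on 3. With bulk RNA, a change in a few cells and a smaller change in all cells cannot be told apart.

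Type I interferons bind a receptor whose kinases JAK1 and TYK2 activate the factor ISGF3, of which IRF9 is a part. This factor binds the interferon-stimulated response element in front of its target genes, whereas interferon gamma acts on the gamma-activated site. Many of the products detect, bind or degrade viral RNA, and in tumour cells a set of the same genes can be active without any infection.

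To show what the genes share in sequence, the promoters of RefSeq (GRCh38.p14, 250 bases before to 50 after each annotated start) were searched on both strands for GAAANNGAAA, the core of the response element (TTTCNNTTTC on the other strand), and for TTCNNNGAA, the core of the gamma-activated site. A window was at hand for 25 of the 32 genes. The response element core was found in 17 of the 25 (68%), beside 4.38% of 27305 genes with a window, and the gamma-activated core in 7 of the 25 (28%), beside 9.38%. With the 250 bases before the start alone, the shares were 64% and 28%, beside 3.71% and 8.09%. A match is a stretch of letters and not a measured binding site, and overlapping matches were counted separately. The stretches below are shown because their genes carry the results that follow. IFIT3, HERC5 and IFIH1 had the largest differences, IFIT1 and ISG15 belong to the same family or pathway, and BST2 and DDX60 had the opposite sign. EIF2AK2 is shown as a further gene with non-overlapping groups. All stretches run 5′ to 3′ on the strand of the gene, with the matches to the core in capitals.
IFIT3, first start, chr10:89327821-89327904, plus strand: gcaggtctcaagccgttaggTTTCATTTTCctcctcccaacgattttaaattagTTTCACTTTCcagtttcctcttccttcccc
IFIT3, second start, chr10:89332415-89332507, plus strand: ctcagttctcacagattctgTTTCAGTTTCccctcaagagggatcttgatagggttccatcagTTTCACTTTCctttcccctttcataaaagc
IFIT1, chr10:89392487-89392549, plus strand: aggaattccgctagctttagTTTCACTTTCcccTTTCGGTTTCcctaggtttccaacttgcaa
HERC5, chr4:88456974-88457074, plus strand: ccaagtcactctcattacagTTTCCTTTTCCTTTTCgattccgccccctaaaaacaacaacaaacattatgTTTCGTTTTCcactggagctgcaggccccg
IFIH1, chr2:162318676-162318863, minus strand: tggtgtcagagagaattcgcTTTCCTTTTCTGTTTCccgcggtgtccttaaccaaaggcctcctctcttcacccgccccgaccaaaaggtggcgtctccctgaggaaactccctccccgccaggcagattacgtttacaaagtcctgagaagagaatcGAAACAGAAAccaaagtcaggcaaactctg
ISG15, chr1:1013364-1013419, plus strand: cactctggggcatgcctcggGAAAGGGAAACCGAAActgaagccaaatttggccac
EIF2AK2, chr2:37156957-37157006, minus strand: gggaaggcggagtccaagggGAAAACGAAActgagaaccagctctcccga
BST2, chr19:17405725-17405780, minus strand: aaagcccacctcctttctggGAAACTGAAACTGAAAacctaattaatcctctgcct
DDX60, chr4:168318776-168318860, minus strand: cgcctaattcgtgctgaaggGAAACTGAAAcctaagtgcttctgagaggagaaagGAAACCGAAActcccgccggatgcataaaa

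The stretches of HERC5, IFIH1, BST2 and ISG15 each begin with 2 overlapping matches that share a block of GAAA (TTTC on the other strand), and EIF2AK2 has a single match that spans the start. The windows of DDX58, HERC6, IFI35, IRF1, IRF9, SAMD9L, UBE2L6 and XAF1 held no match to the core in these letters, and IFIT2, IFITM2, IRF7, MX2, OASL, TRIM22 and USP18 had no window.

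**Figure D1:**
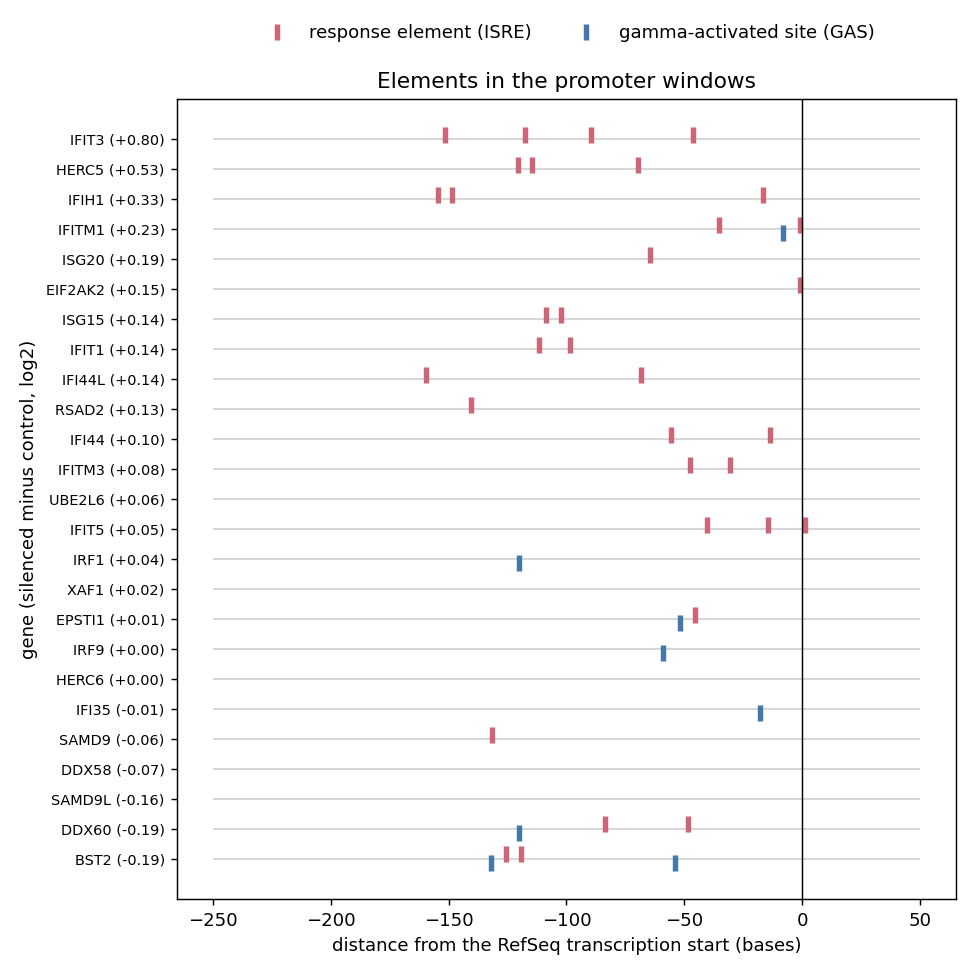
Positions of the response element core (red) and the gamma-activated core (blue) in the promoter windows of the members that have one, in bases from the RefSeq start (x axis); genes with several starts have their windows overlaid. Most red marks of the 17 genes with the core lie before the start.

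The question was whether interferon-stimulated genes differ between spinophilin-silenced and control cells. None of them passed the test, since 0 of the 32 genes had an adjusted p under 0.05 in either direction (limma, Benjamini-Hochberg over all transcript clusters), where 0.170% of all transcript clusters were called higher and 0.0354% lower. The lowest adjusted p was 0.192, for HERC5. At an unadjusted p under 0.05, 3 genes were higher in silenced cells (IFIT3, HERC5 and IFIH1) and 0 lower, which is 9.38% of the genes beside 7.39% of all transcript clusters in either direction. The unmoderated test called 0 genes as well after adjustment, as it did over all transcript clusters. The criteria stated in the methods are 1.5-fold or more together with an unadjusted p under 0.05 from a two-way analysis of variance. That analysis could not be repeated, so the criteria are applied here with the p of limma unless another test is named. IFIT3 alone then met them, which is 1 of 32 (3.12%) higher beside 0.858% of all transcript clusters and 0 lower beside 0.470%. The higher count was also 1 in the unmoderated test, but 0 with the replicate label added to that test as a block.

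Silenced arrays lay above all control arrays in 5 genes (IFIT3, HERC5, IFIH1, EIF2AK2 and IFITM3; 15.6%, beside 6.43% of all transcript clusters) and below them in 0 (beside 6.27%). With fewer arrays to separate, the higher count was 8 without control 1 (25%, beside 11.3% of all transcript clusters), 8 without control 2d (25%, beside 11.7%) and 10 without silenced 2d (31.2%, beside 11.3%). It was 6 without control 2 (18.8%, beside 10.3%), 7 without silenced 1 (21.9%, beside 12.3%) and 6 without silenced 2 (18.8%, beside 10.7%). The lower count was 0 to 2 with an array left out (0% to 6.25%, beside 10.3% to 12.3% of all transcript clusters). The difference, silenced minus control, was above 0 in 24 genes and below 0 in 8, which is 75% above 0 beside 49% of all transcript clusters, with a median of 0.05 beside -0.0030. Without IFIT3, HERC5 and IFIH1, a choice made after their values were seen, the median of the other 29 was 0.04, their range -0.19 to 0.23, and 21 were above 0. No test was made over the genes together, since they share a pathway and are not replicates.

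The arrays were precise enough to bound most of the genes. The 95% interval of the difference lay within 1.5-fold in either direction for 28 of the 32 genes, and the 4 whose interval reached further were IFIT3, HERC5, IFIH1 and IFITM1. Standard errors ran from 0.0762 to 0.208. The spread within groups (residual SD) had a median of 0.121 over the genes, beside 0.14 over all transcript clusters, and 11 of the 32 lay above that value. Brightness limits what can be read from 8 genes that lay below the array median on all 6 arrays (HERC5, ISG20, IFIT1, RSAD2, MX2, IRF1, IFIT2 and EPSTI1), of which IFIT2 lay below the lower quartile on all 6 and RSAD2 on 2. The value table holds no detection call, so a low transcript and background cannot be told apart in these genes.

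**Figure D2:**
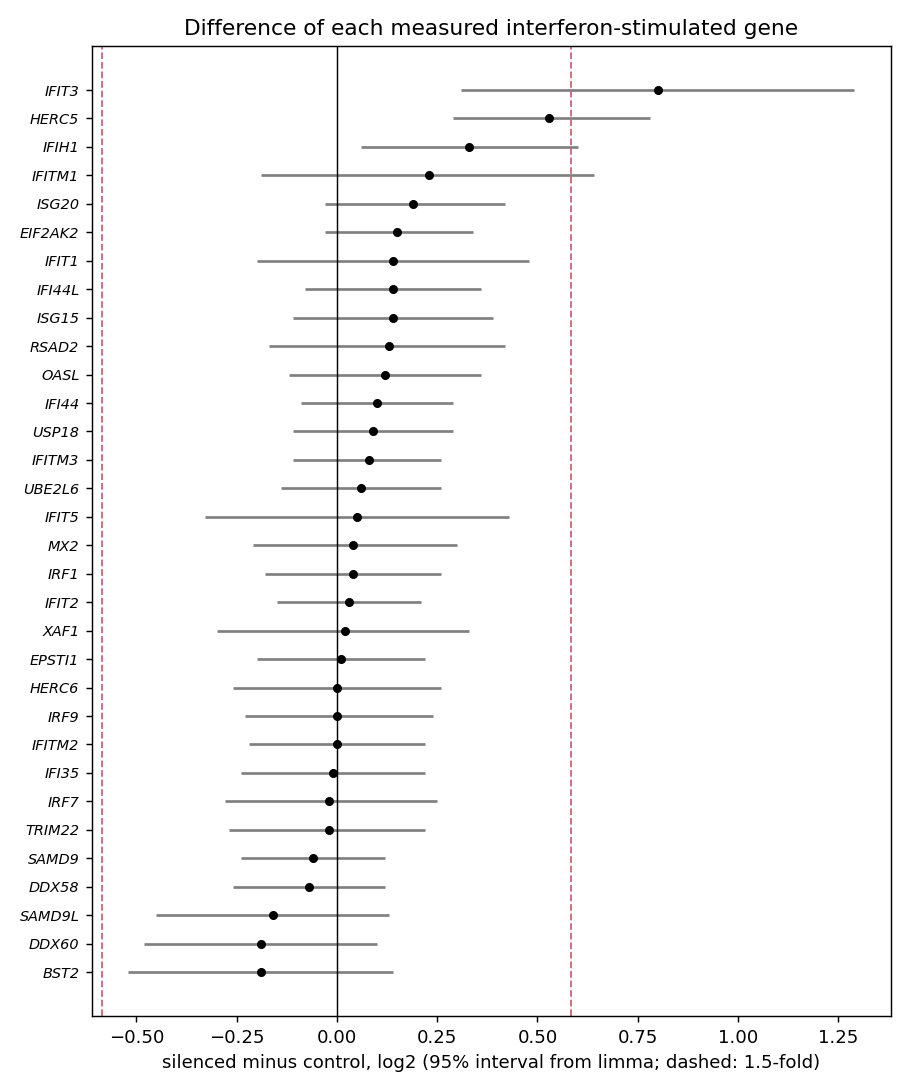
Difference in log2 expression, silenced minus control (x axis), of each of the 32 genes (rows), with the 95% interval of limma over 3 arrays a group; dashed lines mark 1.5-fold. The intervals of IFIT3, HERC5 and IFIH1 lie above 0, and the others include 0.

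The sensors of viral RNA are IFIH1, which encodes MDA5 and recognises long double-stranded RNA, DDX58, which encodes RIG-I and recognises RNA with a 5′ triphosphate, and DDX60, a related helicase. IFIH1 was 8.16, 8.20 and 8.05 in control arrays 1, 2 and 2d and 8.36, 8.37 and 8.69 in silenced arrays 1, 2 and 2d. All silenced arrays lay above all control arrays, with silenced 2d the highest. The difference was 0.33 (SE 0.114, 95% interval 0.06 to 0.60, 1.26-fold), and its unadjusted p of 0.0219 gave an adjusted p of 0.565. Without silenced 2d the difference was 0.22.

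DDX58 (listed as RIGI in the annotation) was 7.73, 7.60 and 7.61 in control arrays and 7.53, 7.57 and 7.63 in silenced arrays. These groups overlapped, and the difference was -0.07 (SE 0.0807, adjusted p = 0.909, limma). DDX60 was 6.58, 6.32 and 6.62 in control arrays and 6.15, 6.47 and 6.34 in silenced arrays. Its difference was -0.19 (SE 0.122, adjusted p = 0.832), and silenced 2 and 2d lay among the control arrays. The sensors therefore did not share a sign: of these 3, 1 was above 0 and 2 below.

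Of the transcription factors, IRF9 is the DNA-binding part of ISGF3, IRF7 amplifies interferon production and IRF1 is an early target that acts on the same genes. IRF9 was 5.84, 5.85 and 5.73 in control arrays and 5.98, 5.75 and 5.70 in silenced arrays, with a difference of 0.00 (SE 0.1). IRF7 was 5.30, 5.15 and 5.49 in control arrays and 5.41, 5.25 and 5.23 in silenced arrays, with a difference of -0.02 (SE 0.111). All 3 genes had overlapping groups, and their adjusted p lay at 0.966 or higher. IRF1 was 4.88, 5.04 and 5.09 in control arrays and 5.09, 5.09 and 4.95 in silenced arrays, with a difference of 0.04 (SE 0.0918).

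ISG15 is a ubiquitin-like protein that is linked to other proteins by the conjugating enzyme UBE2L6 and the ligase HERC5, and removed again by USP18, which also dampens the receptor. HERC5 was 4.13, 3.91 and 3.90 in control arrays and 4.38, 4.56 and 4.59 in silenced arrays. The groups did not overlap, and the difference was 0.53 (SE 0.104, 95% interval 0.29 to 0.78, 1.45-fold) with an unadjusted p of 0.00131 and an adjusted p of 0.192. Every value lay below the median of its array. Without control 1 the difference was 0.61 (1.52-fold) and without silenced 1 it was 0.60 (1.51-fold), so that HERC5 met the criteria of the methods with either array left out. The count of genes that met them was then 2 in place of 1. Over all 53617 transcript clusters, the count called higher went from 460 with all arrays to 508 without control 1 and 586 without silenced 1.

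ISG15 was 6.54, 6.59 and 6.44 in control arrays and 6.75, 6.76 and 6.47 in silenced arrays. Silenced 2d lay among the control arrays and the other silenced arrays above them, and the difference was 0.14 (SE 0.106, adjusted p = 0.866). UBE2L6 had a difference of 0.06 and USP18 of 0.09. HERC6, the neighbour of HERC5 on chromosome 4 and the ISG15 ligase of the mouse, had a difference of 0.00 (SE 0.111). The ISG15 pathway thus had 5 of 5 listed genes measured, with differences from 0.00 to 0.53.

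The IFIT family, whose products bind viral RNA, lies in a cluster on chromosome 10, and all 4 listed members were measured. IFIT3 was 5.85, 5.82 and 5.70 in control arrays and 6.69, 6.98 and 6.11 in silenced arrays. Every silenced array lay above every control array, and silenced 2d lay far below silenced 1 and 2. The difference was 0.80 (SE 0.208, 95% interval 0.31 to 1.29, 1.74-fold), with an unadjusted p of 0.00607 and an adjusted p of 0.382, and it ranked 330 by size among the 53617 transcript clusters. Leaving out silenced 2d gave 1.04 (2.06-fold, adjusted p = 0.0758) and leaving out silenced 2 gave 0.61. The residual SD of 0.318 was the highest of the 32 genes.

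IFIT1 was 4.94, 4.43 and 4.61 in control arrays and 4.87, 4.65 and 4.89 in silenced arrays. These groups overlapped, with a difference of 0.14 (SE 0.145, adjusted p = 0.901) that was 0.28 without control 1 and 0.03 without control 2. IFIT5 was 7.84, 7.47 and 7.29 in control arrays and 7.69, 7.68 and 7.38 in silenced arrays, with a difference of 0.05 (SE 0.16, adjusted p = 0.976). Its groups overlapped throughout, and both groups had their lowest value on array 2d. IFIT2 had a difference of 0.03, with every value below the lower quartile of its array.

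**Figure D3:**
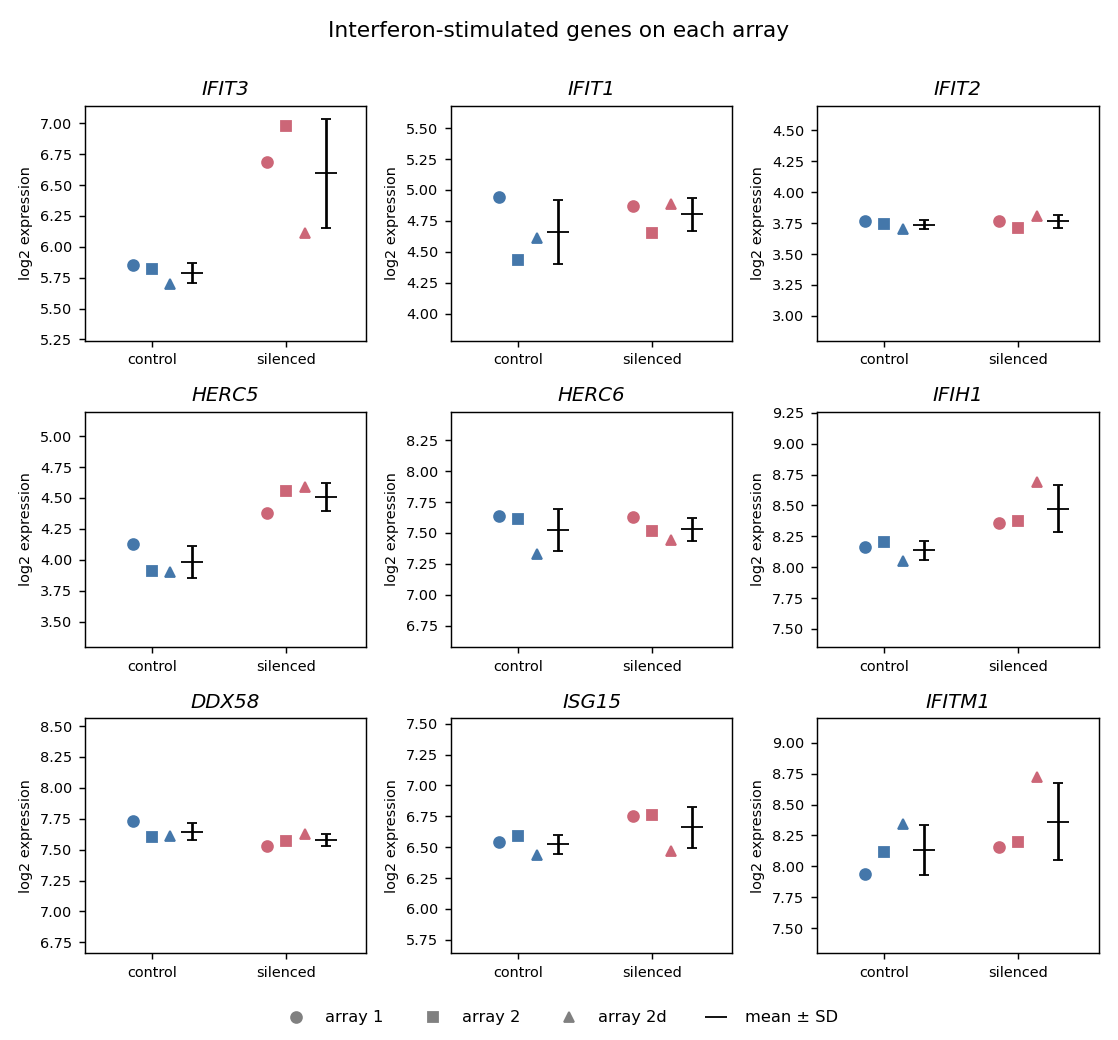
Log2 expression (y axis) of 9 genes on each array of the control and the silenced group; circles, squares and triangles are arrays 1, 2 and 2d, bars give the mean and SD of 3 arrays, and all panels span an equal range. The silenced arrays of IFIT3 lie at 6.69, 6.98 and 6.11, all above the control arrays, while those of IFIT1, IFIT2, HERC6 and DDX58 overlap with control.

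Members of 1 family were set against each other within each array, in 4 pairs chosen after their values were seen. The difference of IFIT3 minus IFIT2 shifted by 0.78 between groups, that of IFIT3 minus IFIT1 by 0.66, that of HERC5 minus HERC6 by 0.53 and that of IFIH1 minus DDX58 by 0.41. With 3 arrays against 3, the exact two-sided permutation test cannot go below p = 0.1, which 3 of the pairs reached (adjusted p = 0.133 over the 4 pairs), and IFIT3 against IFIT1 gave p = 0.2. That lowest p lies above the threshold used for the genes, so none of the 4 pairs could have passed it. The test therefore cannot decide whether family members differ in their response. Each pair also holds IFIT3, HERC5 or IFIH1, the genes with the largest differences, and the shifts are a description only.

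EIF2AK2 encodes PKR, the kinase that stops translation on contact with double-stranded RNA. It was 10.54, 10.55 and 10.56 in control arrays and 10.76, 10.74 and 10.61 in silenced arrays. It was bright, above the 90th percentile on all 6 arrays, and its groups did not overlap, but the difference of 0.15 (SE 0.0791, 95% interval -0.03 to 0.34) had an adjusted p of 0.764. OASL, a relative of the oligoadenylate synthetases, had a difference of 0.12 (SE 0.103) with overlapping groups.

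Among the enzymes that act on nucleotides and nucleic acids, ISG20 is an exonuclease that degrades RNA and RSAD2 encodes viperin. ISG20 was 4.51, 4.47 and 4.62 in control arrays and 4.84, 4.61 and 4.73 in silenced arrays. Silenced 2 lay just below control 2d and the other silenced arrays lay above all controls, with a difference of 0.19 (SE 0.0938, adjusted p = 0.742). RSAD2 had a difference of 0.13 (SE 0.125). MX2, a dynamin-like GTPase that restricts retroviruses, had a difference of 0.04 (SE 0.109).

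The membrane restriction factors differed in sign. IFITM1, which hinders the fusion of enveloped viruses, was 7.94, 8.12 and 8.34 in control arrays and 8.16, 8.20 and 8.72 in silenced arrays. Array 2d was the highest in both groups, and the difference of 0.23 (SE 0.175, 95% interval -0.19 to 0.64, adjusted p = 0.864) was 0.05 without silenced 2d. BST2, which encodes tetherin and holds budding virus at the cell surface, was 7.12, 6.82 and 6.59 in control arrays and 6.71, 6.56 and 6.68 in silenced arrays. The difference of -0.19 (SE 0.14, 95% interval -0.52 to 0.14, adjusted p = 0.849) was -0.06 without control 1, the array with the highest value. IFITM2 had a difference of 0.00 and IFITM3 of 0.08, and although all silenced arrays of IFITM3 lay above control, the groups met at 7.57 to 2 decimals. IFITM1, IFITM2 and IFITM3 are related genes on chromosome 11, and probes of these arrays may not fully separate them. Their sequences were not compared here, and this was not tested.

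IFI44L was 7.74, 7.61 and 7.59 in control arrays and 7.68, 7.76 and 7.91 in silenced arrays, where control 1 lay among the silenced arrays, and had a difference of 0.14 (SE 0.0932, adjusted p = 0.839). Its neighbour on chromosome 1, IFI44, had a difference of 0.10, and IFI35 of -0.01. XAF1, an antagonist of the apoptosis inhibitor XIAP, was 5.71, 5.80 and 5.91 in control arrays and 5.55, 5.94 and 5.98 in silenced arrays. Silenced 1 was the lowest array of XAF1 and silenced 2d the highest, and the difference was 0.02 (SE 0.133, adjusted p = 0.992). SAMD9L, an antiproliferative protein, was 6.33, 6.50 and 6.38 in control arrays and 6.01, 6.41 and 6.31 in silenced arrays. Silenced 2 lay among the controls, and the difference was -0.16 (SE 0.122, adjusted p = 0.86), or -0.04 without silenced 1, the lowest array. The paralogue SAMD9 had -0.06, TRIM22 had -0.02 and EPSTI1 had 0.01.

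The median over the genes was taken on each array. The median deviation of the 32 genes from their own mean over 6 arrays was -0.03, -0.07 and -0.06 on control arrays 1, 2 and 2d and 0.07, 0.05 and -0.01 on silenced arrays 1, 2 and 2d. Over all transcript clusters it was 0.00 or -0.00 on every array. Without IFIT3, HERC5 and IFIH1 it was -0.01, -0.02 and -0.04 on these control arrays and 0.07, 0.03 and -0.01 on these silenced arrays. Over the 32 genes, silenced 2d was thus nearest to the controls in the median, while it held the highest value of IFIH1, HERC5 and IFITM1 and the lowest silenced value of IFIT3. Each array was the highest of the 6 for at least 1 gene, from 1 on control 2 to 9 on silenced 1, and control 2d was the lowest for 11.

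**Figure D4:**
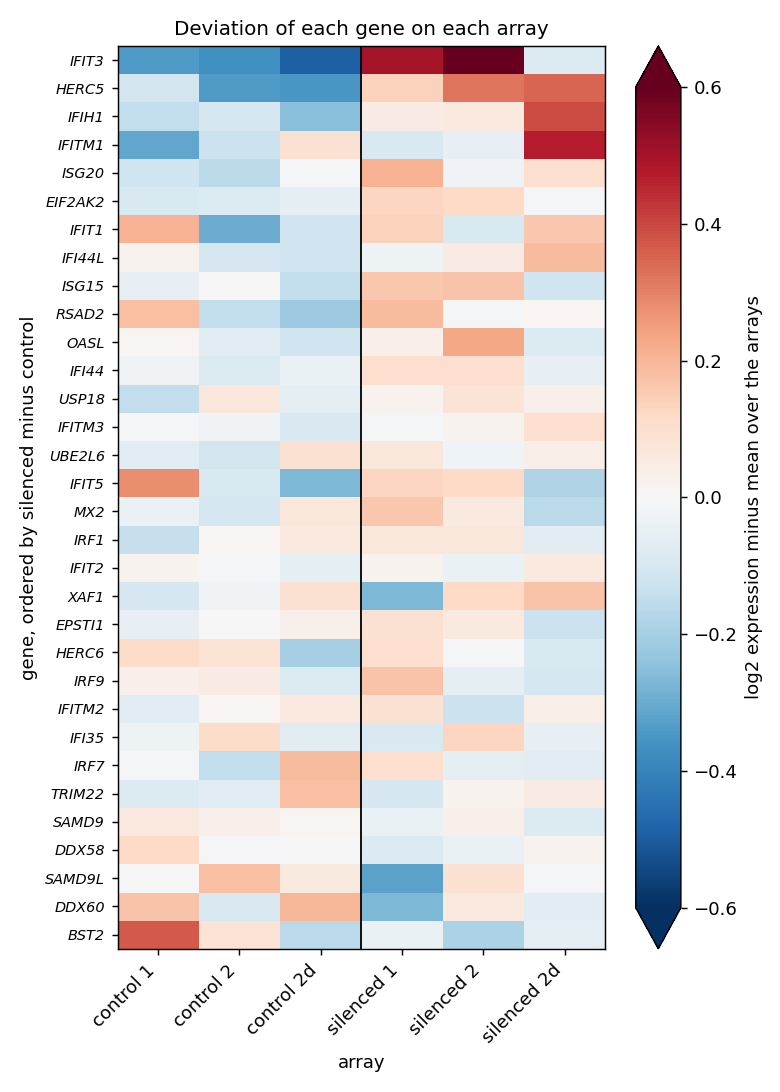
Deviation of each of the 32 genes (rows) from its own mean over the 6 arrays, in log2, on each array (columns), with the colour scale ending at 0.6 in each direction. HERC5 and IFIH1 are blue on the control side and red on the silenced side, as is IFIT3 except on silenced 2d, and most other rows mix both colours within a group.

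Set beside the promoters, the 17 genes with a response element core had a median difference of 0.14 (range -0.19 to 0.80), the 8 without it 0.00 (-0.16 to 0.06), and the 7 with no window 0.03 (-0.02 to 0.12). These classes were compared after the values were seen and are a description with no test. BST2 and DDX60, printed above, carry the core and had differences of -0.19.

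The rest of the pathway was described from lists, each by its measured genes, and 0 of these genes had an adjusted p under 0.05. Of the receptors and kinases, 5 of 9 were measured with a median of 0.08. JAK1 had a difference of 0.08 and TYK2 of -0.14, and IFNAR1 and IFNAR2 were not analysed here. None of the 21 listed interferon genes, IFNB1 included, was analysed here. The other STAT and IRF genes (9 of 12) had a median of -0.02, with -0.28 for STAT5B (adjusted p = 0.5), which serves cytokine receptors, and 0.18 for STAT3. The sensing genes upstream of interferon (17 of 22) had a median of 0.01, with -0.18 for TLR3, an endosomal receptor for double-stranded RNA.

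SOCS1, the inhibitor of JAK kinases that is itself an interferon target, was 5.13, 5.18 and 5.05 in control arrays and 4.82, 4.55 and 4.80 in silenced arrays. All silenced arrays of SOCS1 lay below all control arrays, and the difference of -0.40 (SE 0.101) had an unadjusted p of 0.00565 and an adjusted p of 0.367. Every value of SOCS1 lay below the median of its array, where a low transcript and background cannot be told apart. SOCS3, the related inhibitor of cytokine receptors, had 0.25 (0.08 without silenced 2d), and the median of the 6 measured of 16 negative regulators was 0.01. The genes of MHC class I presentation (6 of 18 measured) had a median of 0.02, with 0.03 for B2M, the light chain, and -0.16 for TAPBP, which helps to load peptides (-0.06 without control 2d).

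Of the NF-kB targets, 12 of 14 measured genes (21 listed) were below 0, with a median of -0.15, and 2 were above 0, where 49% of all transcript clusters were. The 12 include TNF at -0.00. Silenced arrays lay below all control arrays in 2 of the 14, beside 6.27% of all transcript clusters, and 4 of the 14 had values below the lower quartile. CXCL8, a neutrophil chemokine, was 8.68, 8.87 and 9.99 in control arrays and 7.93, 8.55 and 9.14 in silenced arrays. Array 2d was the highest of CXCL8 in both groups, and its difference was -0.64 (SE 0.411, adjusted p = 0.828), or -0.23 without control 2d and -0.33 without silenced 1. CXCL3, which lay above the median on 1 of the 6 arrays, had -0.29 (unadjusted p = 0.0246, adjusted p = 0.58) and CXCL2 -0.28. Of the chemokines that interferon gamma induces, CXCL9 had -0.18, CXCL10 -0.03 and CXCL11 0.37 (adjusted p = 0.701, limma). CXCL9 and CXCL10 lay below the lower quartile on all 6 arrays. CXCL11 lay above the median on 0 arrays and below the lower quartile on 1. A low transcript and background cannot be told apart in these genes.

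**Figure D5:**
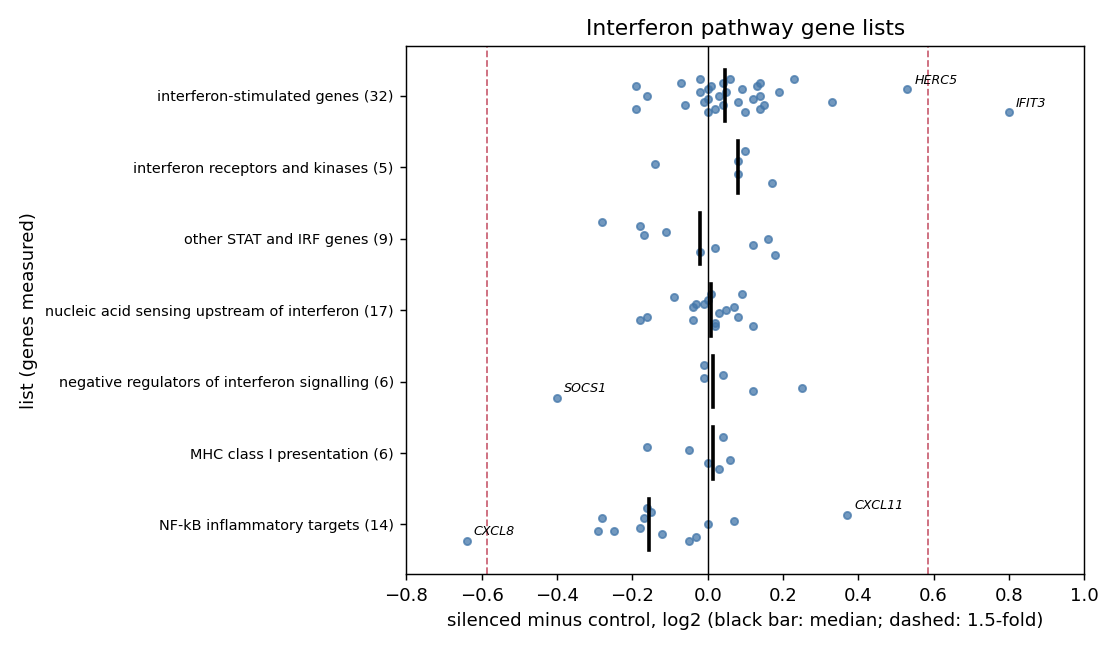
Log2 difference, silenced minus control (x axis), of the measured genes of each pathway list (rows), with the median of a list as a bar. The NF-kB targets have a median of -0.15, and the 32 interferon-stimulated genes 0.05.

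Markers of leukocytes, which express many interferon-stimulated genes, were listed too, although all samples were cells of the SUM159 line. Of 21 listed, 11 were measured, with a summed log2 level of 59.3 to 60.9 in control and 60.2 to 61.5 in silenced arrays. The sums include LAPTM5, which had the highest difference of the 11. Of the 11 differences, 6 were above 0 and 5 below, where 49% of all transcript clusters were above 0. On all 6 arrays, 3 of the 11 lay below the median. PTPRC, the common leukocyte antigen, was not analysed here. LAPTM5, a lysosomal protein of lymphoid cells, was 6.78, 6.89 and 7.26 in control arrays and 7.44, 7.37 and 8.10 in silenced arrays. It met the criteria of the methods with a difference of 0.66 (SE 0.218, adjusted p = 0.547), but no longer did so without control 1 (0.57), without control 2 (0.62) or without silenced 2d (0.43), nor by the unmoderated test. CD68, a macrophage marker, had -0.30 (adjusted p = 0.456). The summed log2 levels were 107.7 to 107.9 and 106.8 to 108.0 for the mesenchymal markers and 91.2 to 92.0 and 90.3 to 91.2 for the luminal markers. The part of these markers in the differences above was not tested.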

How the data were processed

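RNA of 3 spinophilin-silenced and 3 control SUM159 samples was hybridized to 1 array each. The authors processed the arrays in Partek 6.6 (submitters' processing notes) with RMA, that is background correction, quantile normalization and median polish, and deposited log2 expression values. The base is taken as 2 from the range of the values, and the sources used here name no build for the array annotation. Processing of this kind can compress small differences of dim transcripts, and the quantile normalization removes differences in total RNA. No read depth exists for arrays, so their number limits the precision.

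Genes were named through the platform annotation, which gave 16098 of 53617 transcript clusters 1 symbol and 37519 none here. In R 4.3.3, limma 3.58.1 (lmFit, then eBayes) compared the groups over all transcript clusters, without covariates and with Benjamini-Hochberg adjustment. The methods name a two-way analysis of variance whose other factor is not given, so it could not be repeated as such. An unmoderated test was run as an alternative, with and without the replicate label as a block. The fit was tested on simulated data. Members and lists were chosen with earlier results of these data known. Values on each array are given for members past a call rule, for the 12 largest differences and for up to 6 of the largest residual SD. They are also given for IRF9, IRF7, IRF1, ISG15 and DDX58. From each list, up to 4 genes with the largest differences are named, together with the kinases, B2M, CXCL9 and CXCL10. CXCL9 and CXCL10 were chosen after their values were seen, as were the 4 family pairs. Alternatives were arrays 2 and 2d averaged or as a random block (estimated correlation -0.24), a filter on dim transcript clusters, 3 normalizations, trended robust variances, array weights, the unmoderated tests and each array left out. Protein sequences of the families were not used here.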

Additional observations from a re-analysis of the deposited data

How the results depend on the processing

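The count of genes at an adjusted p under 0.05 was 0 under all alternatives, and 98 values over the group kept to within the limits set for them while 13 moved. The count that met the criteria of the methods was 0 under the unmoderated test with the replicate label as a block, where IFIT3 missed the threshold on p. That test called 261 of all 53617 transcript clusters higher and 134 lower by the criteria. The count was 1 to 2 when arrays were left out, the added gene being HERC5. Over all transcript clusters, 487 to 586 were then called higher, beside 460 with all arrays. The count of genes with silenced arrays above control was 11, and below control 3, with arrays 2 and 2d averaged (34.4% and 9.38%, beside 16.8% and 17.4% of all transcript clusters, since 2 values against 2 separate more easily). When arrays were left out, these counts ranged from 6 to 10 (18.8% to 31.2%) and from 0 to 2 (0% to 6.25%). The shares of all transcript clusters were then 10.3% to 12.3% in each direction. The median difference ranged from 0.04 to 0.07 when arrays were left out, with 0.07 without control 2d and without silenced 2d. IFIT3 stayed between 0.61 and 1.04 (adjusted p 0.0758 to 0.764) and IFIH1 between 0.22 and 0.39 (0.3 to 0.83), and HERC5 between 0.46 and 0.61 (0.0913 to 0.764), which the filter on dim transcript clusters removed. The lowest adjusted p of HERC5 and of IFIH1 came with arrays 2 and 2d as a random block. Its estimated correlation was negative (-0.24), and the SE of HERC5 was 0.0951 with it, beside 0.104 in the main fit. Each gene has 1 row, so the mean of all rows changed nothing.

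Differences near 0 changed sign. With arrays left out, the range was -0.07 to 0.20 for IFIT5, -0.03 to 0.14 for MX2, -0.02 to 0.09 for IRF1, -0.06 to 0.15 for XAF1, -0.03 to 0.08 for EPSTI1, -0.10 to 0.06 for HERC6, -0.08 to 0.06 for IRF9, -0.05 to 0.07 for IFITM2, -0.08 to 0.04 for IFI35, -0.10 to 0.07 for IRF7, -0.07 to 0.06 for TRIM22 and -0.06 to 0.02 for CXCL10. With arrays 2 and 2d averaged, XAF1 was -0.03, HERC6 -0.00 and IRF7 0.02. With array weights, HERC6 and IRF9 were -0.01, IRF7 0.02 and IFITM2 -0.02. IRF9 and IFITM2 were -0.01 with arrays 2 and 2d as a random block, IFITM2 was -0.00 with arrays centred on their medians and -0.01 with quantile normalization repeated, and IFI35 was 0.00 with cyclic loess. None of these was called under any of the alternatives, and the cause was not tested.

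The replicate labels were not taken to pair the arrays. Deviations of same-numbered arrays from their group means correlated at 0.0118, 1.57e-05 and 0.0926 over all transcript clusters (0.329, 0.257 and 0.301 over the 32 genes), and 2 of 6 arrays correlated best with their own number. With the replicate block, 0 genes had an adjusted p under 0.05 and 1 met the criteria, beside 483 higher and 274 lower of all transcript clusters. IFIT3 had an adjusted p of 0.337, HERC5 of 0.408 and IFIH1 of 0.643 with this block. CXCL8 (-0.64) met the criteria with the block alone, at an adjusted p of 0.353, while calls over all transcript clusters went from 91 higher and 19 lower to 39 and 1. Over all alternatives those calls ranged from 0 to 166 higher and 0 to 57 lower, with the most under the random block of arrays 2 and 2d.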
